A study of Rattus norvegicus with 3 samples.

Results

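The S100 proteins are small calcium-binding proteins of vertebrates, and 10 of their genes, S100A1, S100A3, S100A4, S100A6, S100A8, S100A9, S100A10, S100A11, S100A13 and S100A16, were taken by symbol from a table of 12771 entries. All 10 were listed. RNA was measured in the supernatant left after cold protease digestion of rat spinal cord and centrifugation of its cells, a fraction that the study used as a source of axonal RNA. The animals were female Sprague Dawley rats, 3 months old. Every animal had a laminectomy at thoracic level 9, which in the SCI (spinal cord injury) group was followed by a moderate to severe contusion and in the No-SCI group was not. About 24 h later the tissue was excised at thoracic level 8, just rostral to the injury, so that the injury site itself was not sampled. By their labels 2 libraries belong to No-SCI and 1 to SCI, while the methods of the study give 2 animals for each condition.

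The authors deposited 1 FPKM value per group and gene, where FPKM counts sequenced fragments scaled by transcript length and by library size. Values of single libraries and read counts are not in this table. The methods of the study give a nominal read number per sample, but the reads behind each value and the differences among animals are not known from it, and no SD, n, interval or test could be given. A gene was called higher or lower when its group values differed at least 2-fold, which is a log2 ratio of SCI to No-SCI of at least 1 in size. Smaller differences are given as values, and none of the differences could be set against replicate error. Of all entries, 7.96% were called higher in SCI and 12.1% lower.

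S100 proteins work mostly as dimers. Each subunit carries a pair of calcium-binding EF-hand loops, and calcium opens a surface that grips target proteins such as annexins, cytoskeletal proteins and ion channels. Some of them are also secreted and act on receptors of other cells. In nervous tissue the family is best known for S100B, the classical marker of astrocytes, and for S100A8 and S100A9, which neutrophils and monocytes carry in large amounts. S100B has no entry in the table.

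Of the 10 S100 genes, 4 were called higher in SCI (S100A6, S100A9, S100A8 and S100A11) and 0 were called lower. This is 40% of the members against 7.96% of all entries. The other 6 lay within 2-fold, with S100A10 higher and S100A1, S100A3, S100A4, S100A13 and S100A16 lower in SCI. The value of S100A4 turned to higher under median centring and under upper quartile scaling. The median log2 ratio was 0.29 for the 10 genes and −0.12 for all entries. Centring the median of all entries at 0 moves every log2 ratio up by 0.12. In such a bulk measurement of a supernatant, several changes cannot be told apart, in either direction. They are changes in the cells that the RNA came from, in RNA per cell and in the share of it left in the supernatant.

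**Figure D1:**
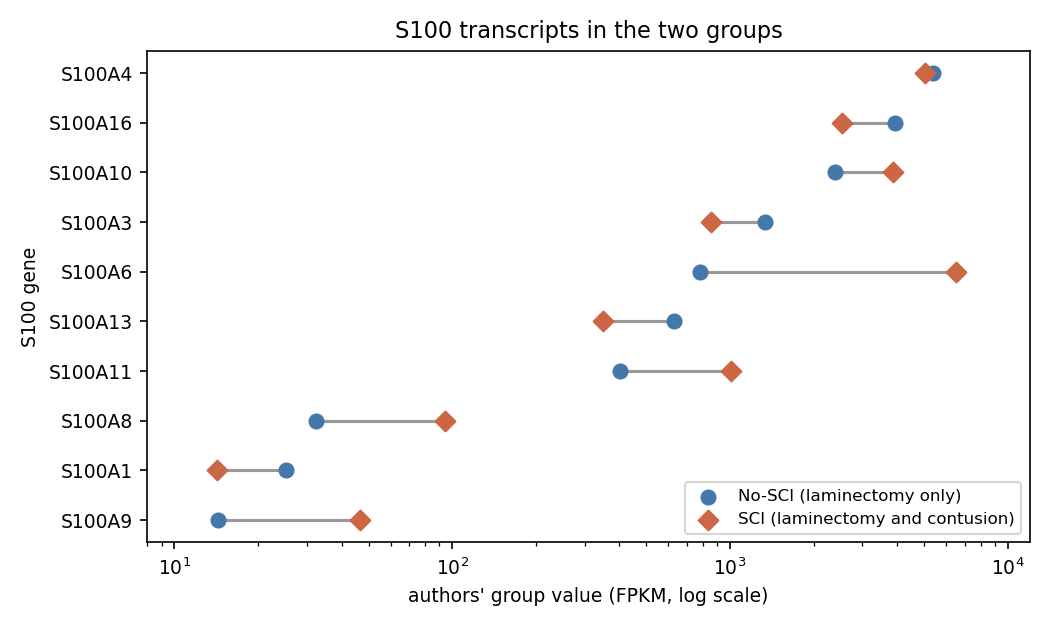
Authors' group value of each S100 gene in FPKM (log axis) in No-SCI (circles) and SCI (diamonds), joined by a line and ordered by the No-SCI value. S100A6 moves from 782 to 6512 FPKM, while S100A4 has similar values in both groups (5395 and 5028 FPKM).

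S100A6, also called calcyclin, is a cytoplasmic S100 protein of fibroblasts, epithelial cells and dividing cells. Its authors' value was 782 FPKM in No-SCI against 6512 FPKM in SCI. It was therefore 8.32-fold higher in SCI, a log2 ratio of 3.06, which ranked 57 among all 12771 entries. S100A6 stood at rank 217 of all entries in No-SCI and at rank 16 in SCI, where it was the most abundant S100 gene. Among the 172 entries with a mean of both groups of at least 1000 FPKM, 9 were called higher in SCI (5.23%), and 0 had a larger log2 ratio than S100A6. The next largest ratio in that class was 1.96. S100A6 itself was below 1000 FPKM in No-SCI and entered this class through its SCI value. Its place there is therefore a description and no further support for a difference.

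The largest change in FPKM was that of S100A6. The 10 genes summed to 14944 FPKM in No-SCI and to 20292 FPKM in SCI, a ratio of 1.36. Without S100A6 the sums were 14161 and 13780 FPKM, a ratio of 0.973. In that remainder the differences of SCI minus No-SCI offset each other, with 1465 FPKM for S100A10 and 608 FPKM for S100A11 against −1403 FPKM for S100A16, −487 FPKM for S100A3 and −368 FPKM for S100A4. The S100A6 share of the S100 sum went from 5.24% to 32.1%. All 10 genes together made up 1.19% of the FPKM of the table in No-SCI and 1.67% in SCI.

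S100A8 and S100A9 form calprotectin, a complex that neutrophils and monocytes store and release, and that acts on Toll-like receptor 4 and RAGE. S100A8 had 32.4 FPKM in No-SCI and 94.1 FPKM in SCI, which is 2.90-fold higher (log2 ratio 1.54). S100A9 had 14.3 FPKM in No-SCI and 46.6 FPKM in SCI, which is 3.25-fold higher (log2 ratio 1.70). Both genes stayed well below the abundant S100 genes in both groups. S100A8 went from percentile 64.7 to percentile 84.4 of all entries and S100A9 from percentile 45.6 to percentile 73.6. S100A8 was 2.26 times as abundant as S100A9 in No-SCI and 2.02 times in SCI.

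S100A11, a partner of annexin A1 that takes part in membrane repair, had 403 FPKM in No-SCI and 1010 FPKM in SCI. It was 2.51-fold higher in SCI, with a log2 ratio of 1.33, and 4.64% of all entries had a larger one. S100A10, or p11, does not need calcium to bind and forms a tetramer with annexin A2 at the plasma membrane. Its value was 2386 FPKM in No-SCI and 3851 FPKM in SCI, which is 1.61-fold (log2 ratio 0.69) and short of a call. It was the third most abundant S100 gene in both groups. In the rat reference S100a11 has 5 pseudogenes and 2 genes named as S100a11-like, and S100a10 has 1 pseudogene. None of these copies has an entry in the table. Whether S100A10 and S100A11 share reads with them was not tested, and their values are uncertain to that extent.

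S100A4, which binds non-muscle myosin and marks fibroblasts and other motile cells, was the most abundant S100 gene in No-SCI. Its value was 5395 FPKM in No-SCI and 5028 FPKM in SCI, at ranks 18 and 21 of all entries. The log2 ratio was −0.10 as deposited, 0.02 after median centring and 0.00095 after scaling to the same upper quartile. S100A6 stood at 0.145 times the level of S100A4 in No-SCI and above it in SCI, so that the order of this pair was exchanged.

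S100A16, an S100 protein of wide expression that is found in astrocytes, had 3933 FPKM in No-SCI and 2530 FPKM in SCI, a log2 ratio of −0.64. S100A3, a cysteine-rich protein best known from hair follicles, had 1342 FPKM in No-SCI and 855 FPKM in SCI, a log2 ratio of −0.65. S100A13, which takes part in the release of fibroblast growth factor 1, had 630 FPKM in No-SCI and 350 FPKM in SCI, a log2 ratio of −0.85. S100A1, known from heart and skeletal muscle, where it acts on calcium release channels and calcium pumps, had 25.2 FPKM in No-SCI and 14.3 FPKM in SCI, a log2 ratio of −0.82. These 4 genes were lower by similar amounts, between 1.55-fold for S100A16 and 1.80-fold for S100A13, and none reached 2-fold. Each stayed lower under every scaling and pseudocount tried.

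Most S100 transcripts were abundant in this fraction. The median of the 10 genes was 706 FPKM in No-SCI and 933 FPKM in SCI, against medians of 17.2 and 15.6 FPKM over all entries. In each group 7 of the 10 genes lay at or above percentile 95 of all entries. The order in No-SCI ran from S100A4 over S100A16, S100A10, S100A3, S100A6, S100A13, S100A11, S100A8 and S100A1 to S100A9. In SCI it ran from S100A6 over S100A4, S100A10, S100A16, S100A11, S100A3, S100A13, S100A8 and S100A9 to S100A1. S100A10 and S100A8 kept their places. With no spread between libraries, it cannot be said which neighbours in these orders differ.

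**Figure D2:**
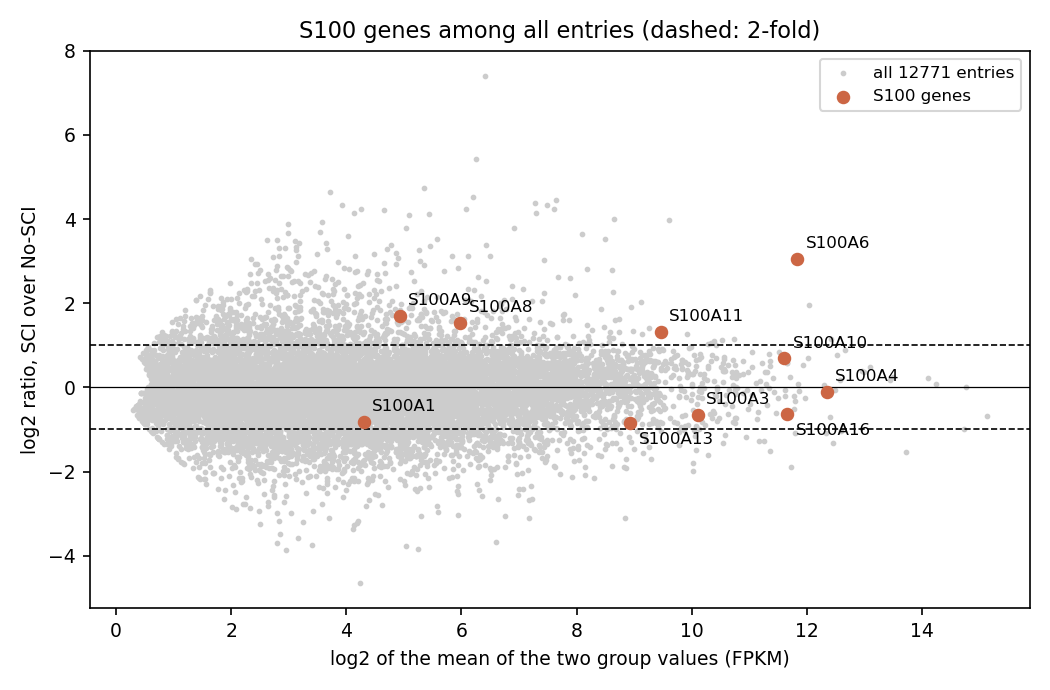
Log2 ratio of SCI to No-SCI against the log2 of the mean of both group values in FPKM, for all 12771 entries (grey) and the 10 S100 genes (orange, labelled), with dashed lines at a 2-fold difference. S100A6 (log2 ratio 3.06), S100A8, S100A9 and S100A11 lie above the upper line.

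All 10 genes matched a symbol of the RefSeq rat reference (GRCr8), in which they lie on chromosome 2. That assembly differs from the rn6 genome behind the values and was used here for the order of the genes and for their promoters. From S100A1 the order runs over S100A13, S100A16, S100A3, S100A4, S100A6, S100A8, S100A9 and S100A11 to S100A10. The first 5 genes in this order, S100A1 to S100A4, all had lower values in SCI (log2 ratios from −0.85 to −0.10, with S100A4 turning to higher under median centring and upper quartile scaling). The last 5, from S100A6 onward, all had higher values (log2 ratios from 0.69 to 3.06). S100A7A, a further S100 gene that lies between S100A6 and S100A8, went against this with 2.76 FPKM in No-SCI and 1.32 FPKM in SCI (log2 ratio −1.07), both close to the lowest value in the table, 1. S100A5 and S100A14, which also lie in the cluster, have no entry.

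**Figure D3:**
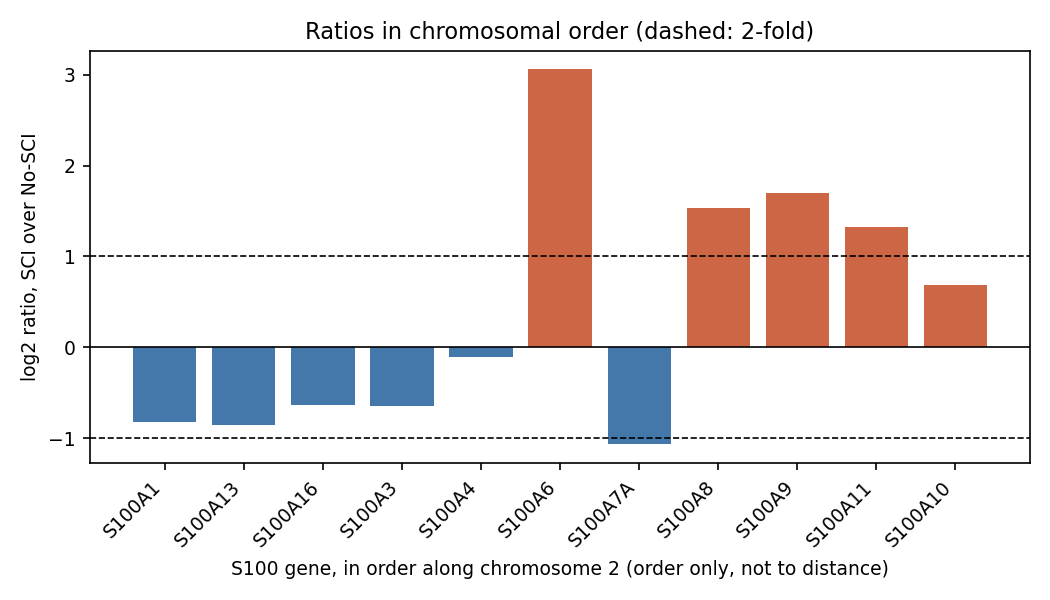
Log2 ratio of SCI to No-SCI of the 11 listed S100 genes of chromosome 2, in their order in the GRCr8 reference and not to distance, with dashed lines at a 2-fold difference. Bars run from −0.82 for S100A1 to −0.10 for S100A4 on the left and, from S100A6 (3.06) to S100A10 (0.69), point upward except for S100A7A (−1.07).

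The genes next to the cluster were looked at as well. Between S100A9 and S100A11 lie 58 protein-coding genes, including those of the cornified skin envelope, and 1 of these is listed, SPRR1A with 2.18 FPKM in No-SCI and 1.69 FPKM in SCI. On the other side S100A1 is preceded by CHTOP, an RNA export factor, and SNAPIN, a SNARE-associated protein, which were chosen after their values were seen. CHTOP had 573 FPKM in No-SCI and 329 FPKM in SCI (log2 ratio −0.80), and SNAPIN had 486 and 274 FPKM (log2 ratio −0.83). These ratios are close to those of S100A1 (−0.82) and S100A13 (−0.85) and further below 0 than those of S100A16 (−0.64) and S100A3 (−0.65). Ratios of this size were common. Of all entries, 17.1% had a smaller log2 ratio than S100A1 and 16.2% a smaller one than S100A13.

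Promoter sequences were held for 7 of the 10 genes, from 250 bases before to 50 bases after the gene start. The motif TATAA, the core of a TATA box, was found on either strand in 4 of these 7, S100A3, S100A4, S100A6 and S100A9, and in 26.2% of 33469 rat promoters of the same length. The motif GGGCGG, a GC box, was found on either strand in S100A3, S100A6, S100A11 and S100A13, which is also 4 of 7, and in 33.1% of all promoters. Stretches of 30 bases around a motif are shown for the most abundant genes of each group and for genes called higher, 5′ to 3′ on the strand of the gene, with the motif in capitals.
S100A6 (chr2:178398471-178398500, GRCr8, + strand): gatgctggccacTATAAggccagccagact
S100A9 (chr2:178490647-178490676, GRCr8, − strand): caaggagctgccTATAAatgctgggcttac
S100A4 (chr2:178388486-178388515, GRCr8, + strand): ggcatggcagggTATAAataggtcagattg
S100A11 (chr2:181875056-181875085, GRCr8, + strand): aggcctgcagagGGGCGGggcgggccgggg
The motif in capitals began 54 bases before the annotated start in S100A6, 42 in S100A9, 31 in S100A4 and 64 in S100A11. In the S100A11 stretch a further GGGCGG overlaps the end of the marked one and is left in lower case. Both motifs stood in promoters of genes with higher and with lower values in SCI. TATAA was found in S100A6 and S100A9 (log2 ratios 3.06 and 1.70) and in S100A4 and S100A3 (−0.10 and −0.65), and GGGCGG in S100A6 and S100A11 (3.06 and 1.33) and in S100A3 and S100A13 (−0.65 and −0.85).

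The annexins, membrane-binding proteins that S100 dimers bridge, were listed for all 5 genes of a list of S100 partners. ANXA2, the partner of S100A10, had 138 FPKM in No-SCI and 660 FPKM in SCI, which is 4.79-fold higher. ANXA1, the partner of S100A11, had 44.5 FPKM in No-SCI and 191 FPKM in SCI, which is 4.29-fold higher. These 2 of the 5 were called higher and 0 lower, and ANXA11, which S100A6 binds, had 53.5 and 89.5 FPKM (log2 ratio 0.74). ANXA5 had 149 and 218 FPKM, and ANXA6 was the 1 annexin of the list with a lower value in SCI (96.8 and 82.5 FPKM, log2 ratio −0.23). S100A10 was more abundant than ANXA2, and S100A11 than ANXA1, in both groups, by a smaller ratio in SCI. The ratio of S100A10 to ANXA2 was 17.3 in No-SCI against 5.84 in SCI, and that of S100A11 to ANXA1 was 9.05 and 5.29.

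Of 9 listed genes for S100 receptors and their signalling, 1 was called higher and 0 lower. The called gene was CD36, a scavenger receptor that takes up fatty acids, with 6.76 FPKM in No-SCI and 29.6 FPKM in SCI. TLR4 had 1.44 FPKM in No-SCI and 1.99 FPKM in SCI, and AGER, which encodes RAGE, had 3.39 and 2.19 FPKM. Both receptors were thus listed at low levels in both groups. MYD88, the adaptor of TLR4, had 14.4 and 19.6 FPKM (log2 ratio 0.45), and BSG, a cell surface glycoprotein that binds S100A9, had 164 and 243 FPKM (log2 ratio 0.57).

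A list of 17 other protein partners had 13 listed genes, of which 2 were called higher and 2 lower, with a median log2 ratio of −0.12. AHNAK, a large scaffold protein that S100A10 and annexin A2 bind, had 37.5 FPKM in No-SCI and 116 FPKM in SCI (log2 ratio 1.63). FGF1, the growth factor released with S100A13, had 21.1 and 48.1 FPKM (log2 ratio 1.19), so that S100A13 was 29.9 times as abundant as FGF1 in No-SCI and 7.28 times in SCI. SYT1, a synaptic vesicle calcium sensor, and ASIC1, an acid-sensing channel that S100A10 binds, were called lower with log2 ratios of −1.15 and −1.04. CACYBP, which is named as the calcyclin-binding protein, had 188 and 176 FPKM. S100A6 was 4.17 times as abundant as CACYBP in No-SCI and 36.9 times in SCI.

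Marker genes of other cell types were counted beside the S100 genes. Of 14 meningeal fibroblast genes, all of them listed, 11 were called higher and 0 lower, with a median log2 ratio of 2.03, and their summed level was 92.5 FPKM in No-SCI and 979 FPKM in SCI. The genes of this list were chosen with earlier results of these data known, so their counts are a description and not a test. Among these genes were CRABP2, with 17.3 and 382 FPKM, and DCN, which encodes the matrix proteoglycan decorin, with 15.1 and 156 FPKM. Of the S100 genes and the listed annexins, S100A6, S100A8, S100A9, S100A11, ANXA1 and ANXA2 were also called higher. The others were not called. Among them were S100A4, named above as a marker of fibroblasts (log2 ratio −0.10), S100A10 (0.69) and ANXA6 (−0.23). The part of meningeal fibroblasts in the S100 values was not tested.

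S100A8 and S100A9 are best known from blood cells, whose markers were counted as well. Of 20 neutrophil and granulocyte genes, 9 were listed and 11 had no entry, among them the defining granule genes MPO, ELANE, LTF, CAMP and NGP. Why a gene has no entry is not known, and a missing entry cannot be read as missing RNA. No value in the table is below 1 FPKM in either group. Whether genes with a lower value in a group were left out was not tested, and such genes could not be called. The oligodendrocyte gene MBP also has no entry, while MOBP of the same list had 44200 FPKM in No-SCI. The 9 listed genes summed to 91.6 FPKM in No-SCI and 59.2 FPKM in SCI. In SCI 4 of them had higher and 5 lower values, with 0 called lower. The most abundant were lower, LCN2 (39.4 and 21.8 FPKM), NCF1 (23.3 and 13.3 FPKM) and CSF3R (17.1 and 8.97 FPKM). The 2 called higher were CXCR2 (1.02 and 2.13 FPKM) and PGLYRP1 (1.23 and 3.23 FPKM), both near the lowest value in the table. Of 12 monocyte and macrophage genes, 10 were listed and 4 were called higher. These were CD14 (18.1 and 60.9 FPKM), LYZ2 (201 and 611 FPKM), CD68 (9.89 and 26.6 FPKM) and CD163 (3.19 and 6.67 FPKM). Of the 10 listed, 7 had higher and 3 lower values in SCI. The lower ones were LGALS3 (3755 and 3253 FPKM), AIF1 (477 and 417 FPKM) and PTPRC (10.4 and 5.45 FPKM). The summed level of the monocyte and macrophage list, most of it from LGALS3, was 4909 FPKM in No-SCI and 4928 FPKM in SCI. Of 8 erythroid and platelet genes 4 were listed, and HBB had 490 and 464 FPKM. The part of blood cells in the values of S100A8 and S100A9 was not tested.

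The lists of glial, muscle and neuronal genes had median log2 ratios below 0. The ratios of S100A1, S100A3, S100A13 and S100A16 were also below 0, and none of these was called. A median below 0 was not particular to these lists. It was −0.67 for the erythroid and platelet list, −0.05 for the neutrophil and granulocyte list and −0.12 for all entries. Of 12 astrocyte genes, 8 were listed, with 0 called higher and 6 lower and a median log2 ratio of −1.36, and GLUL had 5858 and 5624 FPKM (log2 ratio −0.06). The defining markers GFAP and AQP4 have no entry. Of 12 oligodendrocyte genes, 10 were listed, with 7 called lower and a median log2 ratio of −1.63, and MBP and ENPP2 have no entry. All 7 listed skeletal muscle genes, of a list of 10, were called lower, with a median log2 ratio of −3.68 and summed levels of 422 and 42.8 FPKM. The log2 ratios of these 7 genes ranged from −4.64 for MB to −1.44 for TNNC2, and that of S100A1 was −0.82. Of 12 neuronal genes, 10 were listed, with 4 called lower and a median log2 ratio of −0.83. The part of these cells in the values of the S100 genes was not tested. Of 7 endothelial genes listed from 10, CDH5 was called higher and 0 lower. For 10 genes that nearly all cells use, 0 were called in either direction and the median log2 ratio was −0.08. They were not all alike in both groups. HPRT1, with 76.7 and 153 FPKM, was just short of a call (log2 ratio 0.999), and B2M had 383 and 240 FPKM (log2 ratio −0.68).

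**Figure D4:**
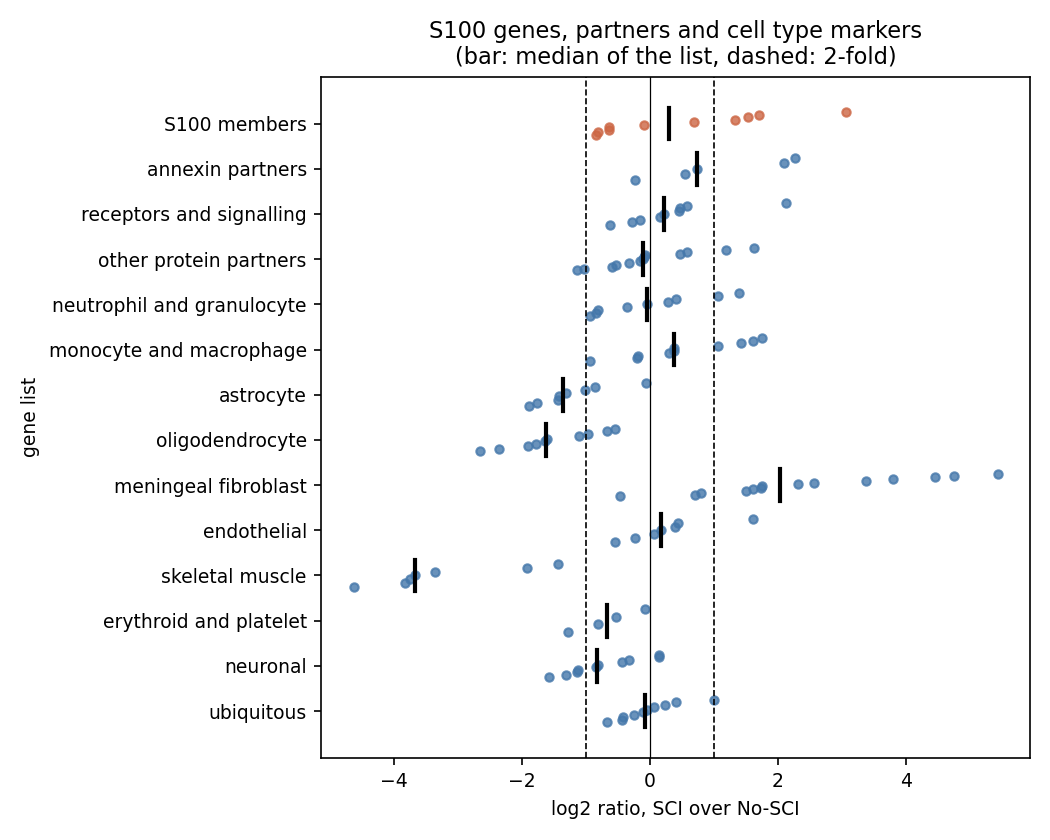
Log2 ratio of SCI to No-SCI for each listed gene (points) of the 10 S100 genes (orange), the lists of partners and receptors and the cell type marker lists (blue), with the median of each list as a black bar and dashed lines at a 2-fold difference. The meningeal fibroblast list has a median of 2.03, the skeletal muscle list one of −3.68, and the S100 genes spread from −0.85 to 3.06.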

How the data were processed

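Supernatant RNA from cold protease digests of rat spinal cord was measured in 2 No-SCI libraries and 1 SCI library, per the labels. The authors depleted ribosomal RNA, built stranded total RNA libraries and reduced each library to the read number of the smallest. They aligned to rn6 with STAR and estimated FPKM per group with Cuffdiff, normalized by the upper quartile (versions 2.5.4b and 1.3.0 in the submitters' processing notes). The deposited FPKM values come as a No-SCI and an SCI value per entry, for 12771 entries with 12758 symbols. The columns with the authors' own fold changes, p-values and q-values for SCI against No-SCI were not used. There were no measurement columns without a group. The methods of the study give a nominal read number per sample. The reads behind each value, and so its precision, are not known from the table.

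Ratios of SCI to No-SCI were taken on the log2 scale with no pseudocount, and an entry was called at a 2-fold difference. For 13 symbols listed 2 times, none of them S100 genes, the more abundant entry was kept. No test was made, since each group has 1 value. Features of the proteins were not analysed here. A further marker list is not reported here. The S100 genes and all lists were chosen with earlier results of these data known. Genes named are the S100 members, the listed partners and receptors, genes of the S100 cluster, and from each marker list the most abundant or those called. Alternatives were pseudocounts of 1 and 0.1, 1 subtracted from every value, median centring, the same total, the same upper quartile, other fold thresholds, a mean of at least 5 FPKM, and means for medians. The ratio and scaling steps were tested on simulated data. Python 3.11.15, numpy 2.4.6, pandas 2.3.3 and matplotlib 3.10.9 were used.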

Additional observations from a re-analysis of the deposited data

How the results depend on the processing

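The 4 S100 genes called higher kept their calls under both pseudocounts, with 1 subtracted from every value, and under median centring, the same total and the same upper quartile, and no further S100 gene was called under these. At a 3-fold threshold 2 were called higher. At thresholds of 1.3-fold and 1.5-fold, 5 S100 genes were called higher and 4 lower, in place of 4 and 0 at 2-fold. The shares of all entries called at these other thresholds were not counted, so these numbers have no background beside them. By SCI values in place of No-SCI values, 2 of the 10 genes kept their place in the order of levels. The median log2 ratio of the S100 genes ranged from 0.29 to 0.53 over the alternatives, with the mean in place of the median giving the highest value. The share of all entries called higher ranged from 6.41% to 10.4%, and that called lower from 9.53% to 16.2%. Across all results and alternatives, 97 values stayed on their side of the 2-fold threshold or within 1.5 times the count, and 4 did not. These were the count called higher at 3-fold, the counts called lower at 1.3-fold and 1.5-fold, and the order of levels. The count called lower thus depends on the threshold, with 0 at 2-fold and 4 at 1.3-fold and 1.5-fold. The study itself used a 1.3-fold minimum together with a false discovery rate, which was not applied here. The order of levels differed between the groups. No paired analysis was possible because the table holds 1 value per group, and for the same reason no library could be left out.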

Other observations

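Cuffdiff usually writes its estimates with 6 significant digits. Of the 12771 entries, 7484 (58.6%) have more than 6 significant digits in at least 1 of their values, and so do 5 of the 10 S100 genes, S100A3, S100A6, S100A9, S100A11 and S100A16. Whether such values are sums over several entries of a symbol was not tested, and levels set side by side between S100 genes depend on it.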
